A study of Homo sapiens with 12 samples.

Results

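MDA-MB-231 is an established human cell line of triple negative breast cancer, a type that lacks the estrogen and progesterone receptors and excess of the receptor ERBB2. The cells were grown in Matrigel, a gel of basement membrane proteins, and total RNA was taken from untreated cultures on day 2 and on day 4. The comparison described here is untreated day 4 against untreated day 2, with 2 libraries for each day, so it uses 4 of the 12 libraries of the series as its groups. The other 8 libraries were also grown in Matrigel and taken on day 4, after Paclitaxel was added on day 2 at 0.0005, 0.005, 0.05 or 0.5 μM, and they enter the filter on low counts, the scaling and the estimate of the spread, but neither group of the comparison. All cultures are of 1 cell line, the labels do not name a vehicle for the untreated cells, and the cells had to be freed from the gel with enzymes before lysis.

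The untreated libraries held 79169121 and 38380629 counts on day 2 and 61914740 and 53851006 on day 4. Markers of the cell line were checked in each library. VIM, an intermediate filament protein of mesenchymal cells, was at 1366, 894, 1128 and 1078 CPM (read counts relative to the scaled size of the library) in day 2 replicates 1 and 2 and day 4 replicates 1 and 2. PGR, the progesterone receptor, had no count in 3 of these 4 libraries. ERBB2, listed as low in this line, was at 52.4, 26.6, 41.3 and 29.8 CPM in the same order, and SPARC, a matrix protein listed as high, at 38.3, 25.3, 27.4 and 22.4 CPM. Summed markers of leukocytes were between 0.537 and 0.871 CPM, with overlapping days, and those of endothelium between 0.417 and 1.51 CPM. Those of fibroblasts were between 8.89 and 16.8 CPM, with overlapping days. Luminal epithelial markers summed to 171 and 148 CPM on day 2 and to 141 and 124 CPM on day 4, and no marker of any of these cells was called. The day 2 libraries differed from each other more than the day 4 libraries did. Of 12230 genes with a mean of at least 5 CPM, 1127 (9.22%) differed at least 2-fold between the day 2 libraries and 21 (0.172%) between the day 4 libraries. The genes and lists that the results turn on are therefore given by library, or with a day 2 library left out.

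Inflammatory signalling in epithelial and carcinoma cells runs largely through the NF-kB family of transcription factors. These are held in the cytoplasm by inhibitor proteins, enter the nucleus after receptors for cytokines or microbial products are engaged, and turn on chemokines, adhesion molecules and their own inhibitors. Growth of cells in a gel is also followed through genes of the cell cycle, which are transcribed in dividing cells, and through genes that respond to low oxygen.

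Across 25249 genes tested, 82 passed an adjusted p of 0.05 (two-sided quasi-likelihood F test of edgeR, with p adjusted by Benjamini and Hochberg), which is 0.325% of those tested. Of these, 81 rose by day 4 (0.321%) and 1 fell (0.00396%). In all 82 both day 4 libraries lay beyond both day 2 libraries. At an unadjusted p under 0.05 there were 2524 genes. Symbols could be given to 60 of the 82, of which 57 were protein coding. The other 22 were identifiers without a symbol, among them several with the same counts as TNF, so the 82 stand for at most 70 separate signals when identifiers with counts within 1% are taken as 1. The 82 include 15 members of a list of cytokines and a list of NF-kB factors and their feedback genes. The calls used a spread shared by all 12 libraries. With the 4 untreated libraries alone 0 genes passed by edgeR, the smallest adjusted p was 0.262, and 599 genes had an unadjusted p under 0.05. With a day 2 library left out, day 2 had no replicate and added nothing to the spread. The common spread (biological coefficient of variation) was 15.6% in the main fit. It was 11% without day 2 replicate 1 and 10.8% without day 2 replicate 2. Those fits can therefore not show agreement of the day 2 replicates, and only their fold changes are used below. Leaving out day 4 replicate 1 gave 47 calls, 45 of them among the 82, and leaving out day 4 replicate 2 gave 49, with 42 among the 82.

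The chemokines CXCL1, CXCL2 and CXCL3, which attract neutrophils, were among the 5 named genes of at least 5 CPM with the smallest p for a rise. CXCL2, a ligand of the receptor CXCR2, was at 8.54 and 15.9 CPM on day 2 and at 98.8 and 87.7 CPM on day 4. It rose 7.70-fold (log2 fold change 2.94, SE 0.24, adjusted p = 0.000214 by edgeR). CXCL1, a ligand of the same receptor, went from 5.01 and 8.68 CPM to 37.9 and 41.7 CPM, a rise of 5.89-fold (log2 2.56, SE 0.21). CXCL3, the third of this group, went from 1.97 and 3.10 CPM to 14.1 and 15.3 CPM, a rise of 5.94-fold (log2 2.57, SE 0.21). For all 3 genes day 2 replicate 2 was the higher of its day, and the days were far apart. They are close copies that lie on chromosome 4 in the GRCh37 build (CXCL1 at 74735110, CXCL3 at 74902306 and CXCL2 at 74962757, each the lower end of the gene), so uniquely aligned reads may be split unequally among them.

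The upstream sequences of these genes are shown because many promoters of this gene class hold a site of NF-kB type. Each is the 100 bases before the RefSeq transcription start in GRCh38.p14, written in the direction of transcription, and capitals mark every match of GGGA followed by any 2 bases and TTCC, or of its reverse complement, GGAA followed by any 2 bases and TCCC. Only genes with a match are shown, taken from the 12 described below, and genes that rose without a match are left out. The 3 chemokine genes, the receptor TNFRSF9, the inhibitors TNFAIP3 and NFKBIA and the cytokine IL6 are given. They lie at chr4:73869293-73869392 on the plus strand (CXCL1), chr4:74099196-74099295 on the minus strand (CXCL2), chr4:74038690-74038789 on the minus strand (CXCL3), chr1:7940840-7940939 on the minus strand (TNFRSF9), chr6:137867159-137867258 on the plus strand (TNFAIP3), chr14:35404750-35404849 on the minus strand (NFKBIA) and chr7:22727100-22727199 on the plus strand (IL6).
CXCL1: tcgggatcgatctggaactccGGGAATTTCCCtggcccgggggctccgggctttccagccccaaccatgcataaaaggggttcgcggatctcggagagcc
CXCL2: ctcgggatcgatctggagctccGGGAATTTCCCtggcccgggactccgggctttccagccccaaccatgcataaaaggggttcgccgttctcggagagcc
CXCL3: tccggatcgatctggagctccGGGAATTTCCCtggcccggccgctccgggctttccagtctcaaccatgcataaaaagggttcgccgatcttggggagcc
TNFRSF9: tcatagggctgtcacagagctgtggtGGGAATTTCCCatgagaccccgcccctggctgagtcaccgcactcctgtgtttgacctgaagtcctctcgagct
TNFAIP3: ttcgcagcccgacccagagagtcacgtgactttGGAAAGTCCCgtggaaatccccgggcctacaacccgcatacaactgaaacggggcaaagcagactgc
NFKBIA: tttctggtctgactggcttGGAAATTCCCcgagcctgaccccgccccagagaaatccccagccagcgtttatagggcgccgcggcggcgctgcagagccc
IL6: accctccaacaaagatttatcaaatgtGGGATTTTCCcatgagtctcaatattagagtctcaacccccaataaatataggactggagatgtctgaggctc
The first matching base lay 79 bases before the start in CXCL1 and CXCL3, 78 in CXCL2, 74 in TNFRSF9, 67 in TNFAIP3, 81 in NFKBIA and 73 in IL6. In CXCL1, CXCL2, CXCL3 and TNFRSF9 the letters match on both strands, shifted by 1 base, so 11 capitals are printed. In the 250 bases before the start, the motif was found on either strand for 12 of the 44 genes that rose and had a RefSeq entry (27.3%). The same share was 1.93% of the 13291 tested genes with an entry and 1.73% of all 27305. The 5 other genes with a match were IL32, LTB, MAP3K8, MIR3142HG and NFKBIZ. A match is a description of letters and was not tested for binding here.

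Of the 28 genes listed as cytokines and chemokines, 25 were tested, and 9 rose, against 0.321% of all genes tested, while none fell (adjusted p under 0.05 by edgeR). Both day 4 libraries were above both day 2 libraries for 21 of the 25 (84.0%), against 15.9% of all genes tested, and below them for 2 (8.0%, against 15.3%). The median log2 fold change of the list was 1.67, against -0.02 over all genes. It was 1.66 without the 2 members that had no count in either day 2 library. IL1B, a secreted activator of the IL-1 receptor, rose from 2.91 and 4.38 CPM to 12.3 and 18.5 CPM, 4.29-fold (log2 2.10, SE 0.22). IL6, an inflammatory cytokine, rose from 5.34 and 6.26 CPM to 19.1 and 14.8 CPM, 2.94-fold. IL32, a secreted inducer of other cytokines, rose from 2.44 and 3.79 CPM to 9.74 and 14.1 CPM, 3.89-fold. In each of these 3 the lower day 4 library exceeded the higher day 2 library more than 2-fold. CSF2, the growth factor GM-CSF, rose from 9.10 and 18.1 CPM to 38.3 and 47.8 CPM, 3.19-fold. CCL20, a chemokine for lymphocytes and dendritic cells, was near the detection limit on day 2 with 8 and 21 counts and had 115 and 191 counts on day 4, a ratio of 10.7 per total count (95% exact interval 7.31 to 16.3, counting error only). TNF had 2 and 1 counts on day 2 and 37 and 32 on day 4, a ratio of 23.4 (7.67 to 116), and the table repeats its counts under other identifiers.

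CXCL8, another CXCR2 ligand, did not pass the edgeR test. It was at 92.0 and 362 CPM on day 2 and at 817 and 1122 CPM on day 4 (log2 2.10, SE 0.45, adjusted p = 0.103 by edgeR). The day 4 libraries were both above the day 2 libraries, but the day 2 libraries lay further apart than for any other gene with a symbol and at least 5 CPM that was higher in replicate 2. CCL2, a monocyte chemokine, was at 309 and 489 CPM against 794 and 761 CPM (adjusted p = 0.0935). IL11, a cytokine of the IL-6 family, was lower on day 4, at 42.0 and 45.3 CPM against 78.0 and 55.6 CPM, and did not pass the test either (adjusted p = 0.243). By DESeq2, another count model, all 3 passed (adjusted p = 0.0125 for CXCL8, 0.00129 for CCL2 and 0.0448 for IL11). With offsets for exon GC content and length, added after the data were seen, they passed as well (0.00244, 0.00371 and 0.0485).

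Several receptors and ligands outside the cytokine list also passed the test. TNFSF15, a TNF family ligand, rose from 1.53 and 2.18 CPM to 16.01 and 9.11 CPM, 6.93-fold (log2 2.79, SE 0.26). TNFRSF9, the receptor also called 4-1BB, rose from 1.62 and 2.42 CPM to 10.8 and 11.8 CPM, 5.76-fold (log2 2.53, SE 0.19). LTB, the membrane ligand lymphotoxin beta, was low throughout and rose from 0.632 and 0.537 CPM to 1.77 and 3.27 CPM. ICAM1, the adhesion molecule that leukocyte integrins bind, rose from 11.6 and 8.74 CPM to 44.3 and 43.9 CPM, 4.31-fold, and had the smallest p of all named genes of at least 5 CPM after TNFRSF9 (adjusted p = 0.000169 by edgeR).

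**Figure D1:**
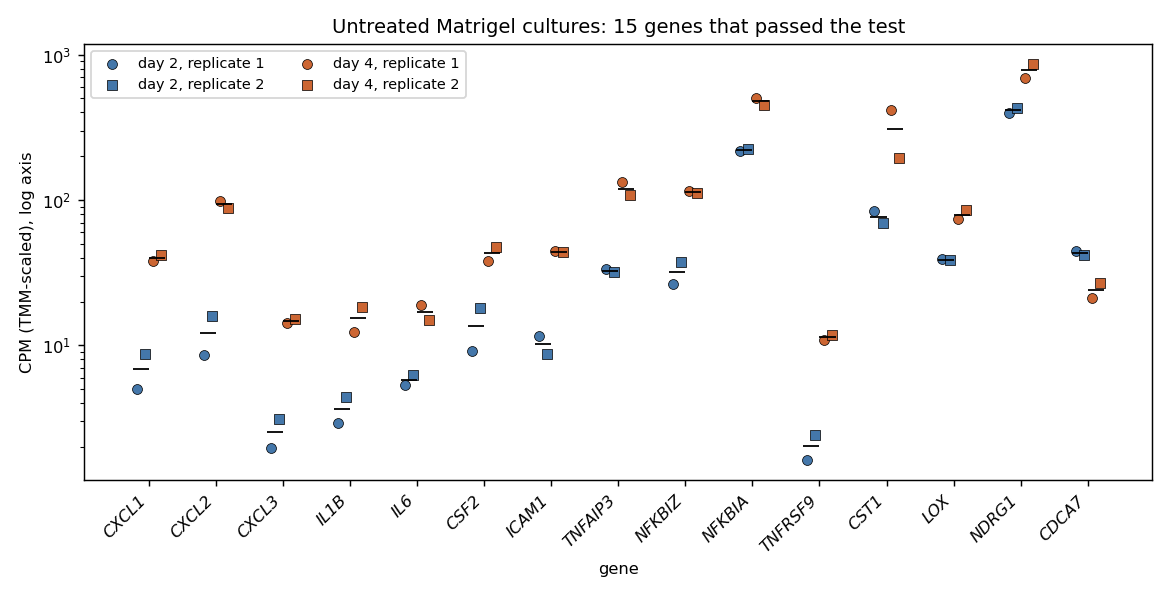
TMM-scaled CPM on a log axis of 15 genes that passed the test, with circles for replicate 1, squares for replicate 2 and black bars for the mean of the 2 libraries of a day. The day 4 libraries are above both day 2 libraries for the first 14 genes and below them for CDCA7.

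Among 19 tested genes of the NF-kB list, 6 rose, against 0.321% of all genes tested, and none fell, with a median log2 fold change of 0.76. Both day 4 libraries were above both day 2 libraries for 16 of the 19 (84.2%), against 15.9% of all genes tested and 9.3% of genes of at least 5 CPM. Beside ICAM1, the 6 included 3 feedback genes. TNFAIP3, the ubiquitin-editing enzyme A20 that dampens NF-kB, rose from 33.5 and 31.9 CPM to 132 and 108 CPM, 3.66-fold (log2 1.87, SE 0.16). NFKBIZ, a nuclear IkB protein, rose from 26.5 and 37.4 CPM to 115 and 112 CPM, 3.57-fold. NFKBIA, the inhibitor IkB alpha, rose from 219 and 226 CPM to 505 and 450 CPM, 2.15-fold. For these 3 inhibitors and modulators no library of 1 day reached those of the other. Their largest difference between replicates of a day was in NFKBIZ on day 2, at -0.50 on the log2 scale.

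The adaptor TRAF1 rose from 11.6 and 11.5 CPM to 23.5 and 32.1 CPM, 2.41-fold. The NF-kB subunit RELB rose from 17.4 and 14.7 CPM to 30.8 and 41.4 CPM, 2.25-fold. The subunits NFKB2, at 91.4 and 72.4 CPM against 128 and 150 CPM, and REL, at 20.6 and 19.7 CPM against 39.1 and 31.3 CPM, were higher in both day 4 libraries without passing by edgeR, while DESeq2 passed both (adjusted p = 0.00633 and 0.0125). RELA, the main activating subunit, had overlapping days at 81.1 and 38.8 CPM against 62.3 and 52.7 CPM. Its log2 fold change was -0.06 over all libraries and ran from -0.46 without day 2 replicate 2 to 0.57 without day 2 replicate 1. Outside the list, the kinase MAP3K8 (2.20-fold), the receptor-associated kinase IRAK2 (2.12-fold), the RNase ZC3H12A (2.42-fold) that degrades cytokine transcripts, the factor CEBPD (2.51-fold), the secreted pattern recognition protein PTX3 (2.97-fold) and PTGS2 (2.35-fold), the inducible cyclooxygenase, also rose. These 6 genes were chosen after their values were seen, except PTX3.

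Calls in these lists depended on the libraries used. The cytokine and NF-kB medians were 1.63 and 0.88 without day 2 replicate 1, and 2.12 and 0.64 without day 2 replicate 2. With the 4 untreated libraries alone none of either list passed, at medians of 1.67 and 0.77. Of the 60 named called genes, 24 overlap a gene on the opposite strand in the annotation, among them ICAM1, TNFAIP3, IL6, TNFRSF9 and TNFSF15. The sources used here do not state whether strand was used in counting, so reads of overlapping pairs cannot be told apart.

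CST1, CST4 and CST2, which encode secreted cysteine protease inhibitors of the cystatin family, also rose. CST4 and CST2 were chosen after their values were seen. CST1 rose from 83.9 and 69.5 CPM to 418 and 195 CPM, 3.99-fold (log2 2.00, SE 0.28, adjusted p = 0.00975 by edgeR). CST4 rose from 48.9 and 49.7 CPM to 218 and 109 CPM, 3.32-fold. CST2 rose from 5.25 and 5.01 CPM to 13.02 and 8.87 CPM, 2.13-fold. In all 3 day 4 replicate 1 was the higher of its day. The genes neighbour each other on chromosome 20 and are near-identical copies, so the split of reads among them is uncertain.

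The other large rises were of mixed function. RERG, a RAS-like GTPase, was near the detection limit on day 2, with 6 and 7 counts against 78 and 33 on day 4. MIR3142HG, the host transcript of an inflammation-linked microRNA, rose from 0.478 and 1.13 CPM to 2.83 and 4.97 CPM, and the noncoding RNA LINC02966 from 0.183 and 0.268 CPM to 0.819 and 1.012 CPM. EFNA1, a membrane ligand of ephrin receptors, rose from 14.96 and 20.3 CPM to 54.3 and 45.4 CPM, 2.84-fold. CAPN8, a calpain protease, rose 3.18-fold and RAB17, a trafficking GTPase of polarized cells, 2.94-fold. EFNA1, CAPN8 and RAB17 were chosen after their values were seen. Of the 59 named genes that rose, 53 did so at least 2-fold.

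Genes with roles in epithelia and in matrix breakdown were among the called genes one by one, while the medians of their lists lay near 0. ELF3, an epithelial transcription factor, rose from 4.68 and 5.04 CPM to 21.2 and 11.3 CPM, 3.36-fold. CLDN1, a tight junction protein, rose from 13.3 and 12.7 CPM to 29.99 and 23.4 CPM, 2.05-fold. These were the 2 genes that rose of 33 tested in the list of epithelial genes and keratins, whose median log2 fold change was 0.11, where 0.321% of all genes tested rose. KRT81, a hair keratin, was lower at 30.9 and 26.5 CPM against 48.4 and 47.0 CPM (adjusted p = 0.0710). MMP13, a collagenase, rose from 0.815 and 1.07 CPM to 2.05 and 2.87 CPM, the 1 of 31 that rose among proteases and their inhibitors (median -0.02).

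Low oxygen and glycolysis genes showed 3 rises among 42 tested, where 0.321% of all genes tested rose, and no fall. LOX, the collagen crosslinking enzyme lysyl oxidase, rose from 39.1 and 38.5 CPM to 73.7 and 84.9 CPM, 2.04-fold (log2 1.03, SE 0.13, adjusted p = 0.00414 by edgeR). CA9, a carbonic anhydrase that is a standard hypoxia marker, rose from 2.95 and 4.06 CPM to 8.35 and 10.6 CPM, 2.74-fold. NDRG1, a stress-responsive gene, rose from 396 and 433 CPM to 694 and 865 CPM, 1.88-fold. The median of the list was 0.19, and 16 members (38.1%) were higher in both day 4 libraries while none was lower in both, against 15.9% and 15.3% of all genes tested and 9.3% and 20.2% of genes of at least 5 CPM. Members at that level without a call included EGLN3, at 19.7 and 19.4 CPM against 30.6 and 29.5 CPM, ENO2, at 98.9 and 73.8 CPM against 123 and 134 CPM, and VEGFA, at 115 and 96.9 CPM against 126 and 149 CPM. The number that rose was 15 without day 2 replicate 1, 10 without day 2 replicate 2 and 0 without day 4 replicate 2, where 4.32%, 2.02% and 0.183% of all genes tested rose.

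Stress genes added single calls, both of which were lost without day 4 replicate 2. They were 1 of 28 tested for ER stress and the amino acid response and 1 of 24 for heat shock. Over all genes tested, 0.321% rose. The heat shock list had a median of -0.17, with 15 of 24 below 0. Both day 4 libraries were higher for 6 of its genes and lower for 7. CHAC1, a glutathione-degrading enzyme of the amino acid response, rose 2.11-fold, from 6.91 and 5.46 CPM to 12.4 and 13.9 CPM. HSPA6, an inducible heat shock protein, rose 2.73-fold, from 2.23 and 2.30 CPM to 5.55 and 6.83 CPM. In the list of immediate early genes, which respond to stimulation without new protein synthesis, 0 of 29 passed, with 13 at an unadjusted p under 0.05 and a median of 0.48. Both day 4 libraries were higher for 11 of them (37.9%, against 15.9% of all genes tested and 9.3% of genes of at least 5 CPM). IER3, at 161 and 149 CPM against 294 and 245 CPM, came closest (adjusted p = 0.0518 by edgeR and 0.000367 by DESeq2), followed by KLF6 and JUNB. The median of this list was 0.86 without day 2 replicate 1, 0.13 without day 2 replicate 2 and 0.096 without day 4 replicate 1, where 11 of the 29 lay below 0.

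**Figure D2:**
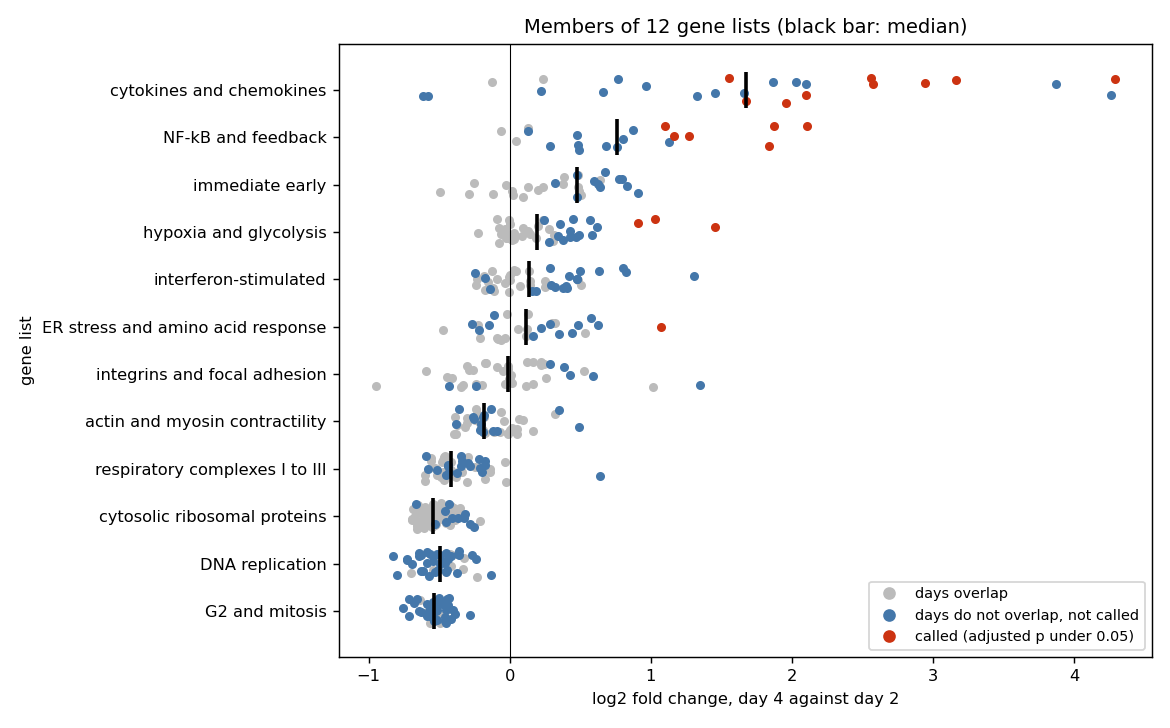
Log2 fold change of every tested member of 12 gene lists, with red for genes that passed the test, blue for genes whose days do not overlap and grey for the rest; black bars are medians. Cytokine and NF-kB members lie mostly to the right of 0, and all 46 replication and 40 mitosis genes lie to the left without a call.

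Among all genes tested, 1 fell, and it is in neither cell cycle list described here. CDCA7, a MYC- and E2F-responsive gene, fell from 44.4 and 41.7 CPM to 21.1 and 26.8 CPM (log2 fold change -0.85, SE 0.15, adjusted p = 0.0425 by edgeR). This call was lost when either day 4 library was left out, with 0 genes then called lower, and with the 4 untreated libraries alone. Lower genes of at least 5 CPM with a small p that did not pass included HES1, a repressor induced by Notch, at 72.6 and 50.3 CPM against 36.4 and 31.9 CPM (adjusted p = 0.0649), and FBXO5, an inhibitor of the anaphase-promoting complex, at 39.0 and 42.1 CPM against 26.0 and 26.9 CPM (adjusted p = 0.0787). KRT81, HMGN2, FAM111B, CDC45, DLEU2, CCNA2 and DSCC1 completed the 10 with the smallest p. DESeq2 passed HES1 (adjusted p = 0.000494), FBXO5 (0.000466) and each of the others of these 10.

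Of the DNA replication genes, 46 of 46 had a log2 fold change below 0, as had 52.7% of all genes tested and 66.8% of genes of at least 5 CPM, with a median log2 of -0.49, 35 at an unadjusted p under 0.05 and 0 called. For 35 (76.1%) both day 4 libraries were below both day 2 libraries, against 15.3% of all genes tested and 20.2% of genes of at least 5 CPM. CDC45, a subunit of the replicative helicase, was at 43.6 and 46.1 CPM against 28.5 and 29.5 CPM. MCM10, which helps to start replication forks, was at 72.0 and 60.9 CPM against 44.5 and 43.9 CPM. CCNE2, a cyclin of the G1 to S transition, was at 20.6 and 30.2 CPM against 12.3 and 16.3 CPM. None of these 3 passed, with adjusted p between 0.100 and 0.173.

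The G2 and mitosis list gave 40 of 40 below 0, a median of -0.53, 33 at an unadjusted p under 0.05 and 0 called, and 34 (85.0%) were lower in both day 4 libraries. Over genes of at least 5 CPM, 7.8% were lower at an unadjusted p under 0.05 and 20.2% were lower in both day 4 libraries. TOP2A, the topoisomerase of dividing cells, was at 723 and 816 CPM against 488 and 508 CPM. KIF23, a kinesin of cytokinesis, was at 172 and 182 CPM against 116 and 126 CPM. CENPA, the centromere histone, was at 29.5 and 27.6 CPM against 20.2 and 19.2 CPM. In bulk RNA, fewer dividing cells and less of these transcripts per cell cannot be told apart.

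Both list medians stayed below 0 with either day 2 library left out, though without day 2 replicate 1 the members below 0 were 39 of 46 and 35 of 40. Without day 2 replicate 1 the medians were -0.33 for replication and -0.52 for mitosis, with 14 and 21 genes that fell. Without day 2 replicate 2 the medians were -0.51 and -0.48, with 24 and 16. Over all genes tested, 5.69% and 5.01% fell in these 2 fits. DESeq2 called 9 and 6 lower, and 0.327% of all genes. An added fit with offsets for exon GC content and exon length, made after the data were seen, called 8 and 1 lower, and 0.157% of all genes. The replication-dependent histones, core chromatin genes made in S phase, were measured in part, with 16 of 53 tested, a median of -0.49 and 0 called. Their median was -0.79 without day 2 replicate 1 and -0.21 without day 2 replicate 2, where 10 of the 16 lay below 0.

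Ribosomal protein genes had a lower median still, but not an agreement of replicates. All 78 were below 0, with a median of -0.55, yet only 11 (14.1%) were lower in both day 4 libraries, near the 15.3% of all genes and under the 20.2% of genes of at least 5 CPM. Their median difference between the day 2 libraries, replicate 1 minus replicate 2, was -0.88 on the log2 scale, larger than the difference between days. Without day 2 replicate 1 the median was -0.93, and without day 2 replicate 2 it was 0.01. RPSA, a protein of the small subunit, was at 1372 and 2448 CPM against 1078 and 1336 CPM. Respiratory complex genes were lower in both day 4 libraries for 18 of 49 (36.7%, against 20.2% of genes of at least 5 CPM), and their median also depended on the day 2 library, at -0.42 over all libraries, -0.70 without day 2 replicate 1 and -0.01 without day 2 replicate 2.

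**Figure D3:**
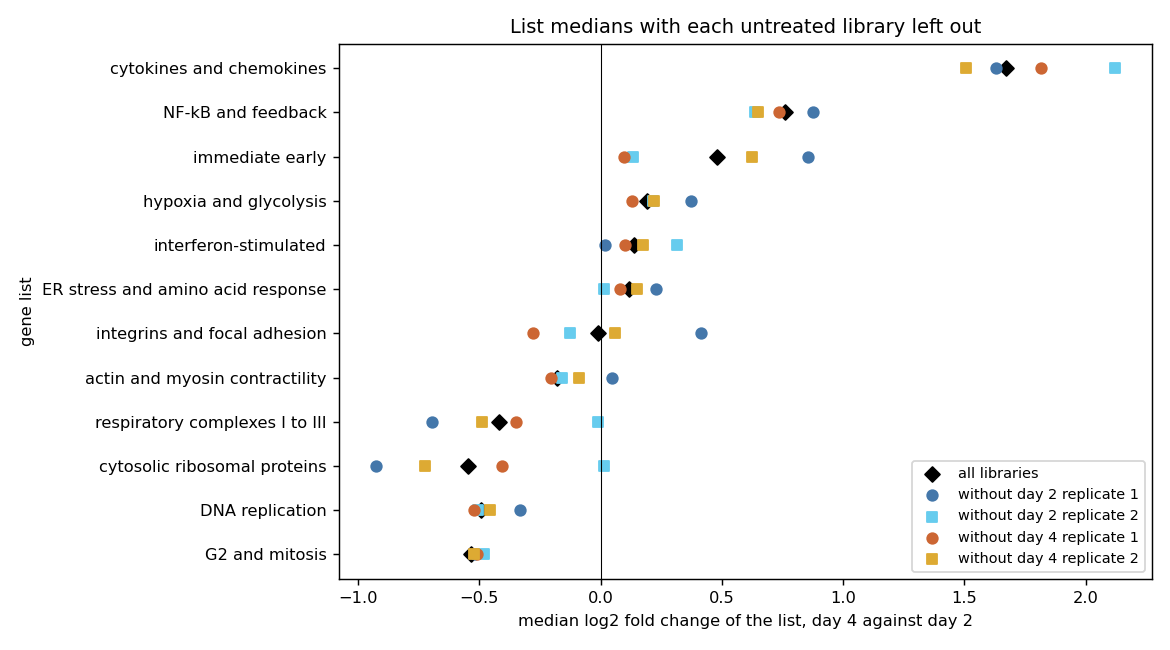
Median log2 fold change of 12 gene lists over all libraries (black) and with each untreated library left out in turn. Cytokine, NF-kB, replication and mitosis medians keep their sign in all 5 fits, whereas the ribosomal protein median runs from -0.93 to 0.01.

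Length and base composition moved with the difference between the day 2 libraries. Among genes of at least 5 CPM, the median of replicate 1 minus replicate 2 was -0.18 in the 20% with the shortest exons in sum and 0.22 in the 20% with the longest. It was -0.29 in the 20% with the lowest GC content and 0.59 in the 20% with the highest, against -0.0039 and 0.21 between the day 4 libraries. For day 4 minus day 2 the medians of the same groups ran from -0.20 in the 20% with the shortest exons to -0.05 in the 20% with the longest, and in the groups by GC content they all lay between -0.11 and -0.08. Genes with the largest excess in day 2 replicate 1 included MUC5AC, a gel-forming mucin (116 and 30.1 CPM), HSPG2, the matrix proteoglycan perlecan (98.6 and 26.8 CPM), and FASN, the fatty acid synthase (692 and 203 CPM). Those with the largest excess in replicate 2 were CXCL8, the mitochondrial ribosomal RNA MT-RNR2 (4593 and 12956 CPM) and the nuclear RNA MALAT1 (238 and 647 CPM).

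Adhesion and contractility genes gave no call by edgeR, where 0.325% of all genes tested were called. The median was -0.01 for 39 integrin and focal adhesion genes and -0.18 for 47 actin and myosin genes, and both turned with the day 2 library. Without day 2 replicate 1 they were 0.41 and 0.05, and without day 2 replicate 2 they were -0.13 and -0.16. ITGA10, a collagen-binding integrin subunit, was at 6.49 and 9.34 CPM against 23.0 and 16.9 CPM (adjusted p = 0.0703). The lists for TGF-beta, MAPK, mesenchymal transition, p53, the BCL2 family, autophagy, YAP and SRF targets, metallothioneins and cholesterol synthesis also held 0 called genes. Their medians lay between -0.23 for metallothioneins and 0.14 for cholesterol synthesis. At the share over all genes, 0 calls are not a result about these lists. Without day 2 replicate 1 and then without replicate 2, medians were 0.36 and -0.45 for YAP and SRF targets and 0.29 and -0.12 for MAPK. Those for p53, the BCL2 family and autophagy stayed above 0. DESeq2 called 2 MAPK, 3 autophagy, 1 p53 and 1 cholesterol gene higher and 2 TGF-beta genes lower. Of 20462 genes, it called 172 higher and 67 lower. Interferon-stimulated genes had a median of 0.14 over 44 tested, 0.02 without day 2 replicate 1 and 0.31 without day 2 replicate 2. Both day 4 libraries were higher for 16 (36.4%) and lower for 3 (6.8%), against 15.9% and 15.3% of all genes tested. Of these genes 0 were called. IRF1, a factor that NF-kB and interferon both induce, was at 55.5 and 35.8 CPM against 93.1 and 68.5 CPM without passing. In the antioxidant list NQO1, a quinone reductase, was lower at 294 and 301 CPM against 433 and 588 CPM, and AKR1C1, an aldo-keto reductase, was higher at 10.7 and 6.70 CPM against 2.49 and 4.27 CPM, both above the threshold by edgeR (adjusted p = 0.148 and 0.0537). DESeq2 passed ITGA10, NQO1 and AKR1C1 (adjusted p = 0.000494, 0.00439 and 0.000226).

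Counts of genes whose days do not overlap depended on scaling. With TMM factors 4020 genes were higher in both day 4 libraries (15.9% of those tested) and 3862 lower (15.3%), and with unscaled library totals 7083 and 1528. The median of all genes lay at -0.01 under TMM and 0.16 under unscaled totals. With a gap of at least 1 on the log2 scale, 186 were higher and 13 lower. An exact permutation test of 2 libraries against 2 cannot go below p = 0.3333, so these counts carry no test.

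The 8 Paclitaxel libraries of day 4 give the level of the same genes in cultures taken on the same day, as a description. CXCL1 ranged from 38.8 to 116 CPM with a median of 70.7 CPM, above both untreated day 2 libraries in every case. ICAM1 ranged from 44.99 to 129 CPM and TNFAIP3 from 85.4 to 160 CPM, also above day 2. Not every gene that rose did so, as RAB17 ranged from 8.51 to 14.6 CPM and CAPN8 from 14.9 to 34.8 CPM. Both overlapped the untreated day 2 libraries and lay below both untreated day 4 libraries. CDCA7 ranged from 13.2 to 20.03 CPM and TOP2A from 244 to 425 CPM, below both untreated day 2 and both untreated day 4 libraries. CCNA2, a cyclin of S phase and G2, ranged from 40.9 to 63.96 CPM, below day 2 but overlapping the untreated day 4 libraries at 50.5 and 57.6 CPM.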

How the data were processed

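RNA was counted in 12 libraries of MDA-MB-231 cells grown in Matrigel. The authors trimmed reads with Trimmomatic 0.39, aligned them to GRCh37 with STAR 2.7.5 and deposited integer read counts of uniquely aligned exonic reads for 63568 gene identifiers, with no normalization. The annotation release and the strand setting are not given in the sources used here. Symbols were found for 55665 identifiers in GENCODE v44 lifted to GRCh37. Genes were kept by filterByExpr over 6 conditions, scaled with TMM and fitted with edgeR 4.0.16 (robust quasi-likelihood, all 12 libraries), with day 4 minus day 2 as the contrast. CPM values use the TMM-scaled libraries, and overlap of days was read on log2 CPM with a prior count of 2. DESeq2 1.42.0, RLE factors, other filters, left-out libraries, the replicate block and GC and length offsets were alternatives. Counts were also simulated with 1 spread for all 12 libraries, and with changes only in genes of at least 5 CPM. There 83.6% of genes changed 2-fold and 16.4% of those changed 1.5-fold were recovered. The larger difference between the day 2 libraries was not simulated, so these shares do not give the recovery in the real comparison. The members and gene lists were chosen with earlier results of these data known. Genes were named when called (15 largest changes each way), when of at least 5 CPM with the 10 smallest p each way, as the 4 leading or the called members of a list, or as the 10 with the largest day 2 library difference each way. The labels name 2 replicates a condition as separate samples without naming separate cultures, so p-values measure the spread between these samples. No library was pooled. The result for 1 list member is not reported here.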

Additional observations from a re-analysis of the deposited data

How the results depend on the processing

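The count of called genes (82, with 81 higher and 1 lower) was 239 with DESeq2 (172 higher, 67 lower), 390 without a filter on low counts (237 and 153), 168 with GC and length offsets (133 and 35), 0 with the 4 untreated samples alone (0 and 0) and 189 with these and the replicate block (174 and 15). Leaving out 1 untreated library gave 47 to 2682 calls, 47 to 1158 of them higher and 0 to 1524 lower. The lower calls were 3 with a mean of at least 1 CPM and 2 with the replicate block. The replicate block gave 92 calls in all. Correlations of replicate deviations ran from -0.598 to 0.679 over 15 pairs of conditions, with the highest between the 2 untreated days, and 80 of the 82 genes were also called by the 4 untreated samples with the block. Not every pair exceeded 0.1, so the numbers were not taken to pair the samples. RLE factors, the other filters, no robust estimation and near-identical identifiers kept once gave totals within 1.5 times of 82.

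Genes whose days do not overlap numbered 199 with a gap of at least 1 (186 higher, 13 lower), and 7083 higher and 1528 lower with unscaled totals. List calls were 0 with the 4 untreated samples alone for cytokines, NF-kB and hypoxia. DESeq2 called 9 replication, 6 mitosis, 5 immediate early and 11 NF-kB genes. GC and length offsets, added after the data were seen, gave 8, 1, 5 and 11, with 6 for hypoxia. Immediate early genes called were 3 with at least 1 CPM and 1 with the replicate block. Leaving out 1 library gave 0 to 24 called replication genes, 0 to 21 mitosis, 0 to 15 hypoxia, 0 to 17 immediate early, 4 to 16 NF-kB and 0 to 69 ribosomal protein genes, and medians of 1.51 to 2.12 for cytokines and -0.93 to 0.015 for ribosomal proteins.

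Of 790 recomputed fold changes of 79 named genes, 604 kept their sign and their side of the threshold, and 10, all with a library left out, changed sign. The log2 values with 1 library left out ran from -1.32 to 0.43 for FASN, -1.62 to 0.23 for HSPG2, -1.855 to 0.057 for MUC5AC, -0.34 to 1.13 for MALAT1, -0.89 to 0.64 for MT-RNR2, -0.46 to 0.57 for RELA and -0.28 to 0.31 for VIM. The ends were the fits without a day 2 library. Without day 4 replicate 2 the sign also changed for MALAT1 (-0.045), RELA (0.055) and VIM (0.00049). The cause of these changes was not tested. In the simulated counts, with 1 spread for all libraries, changes of 1.5-fold in either direction were recovered for 16.4% of genes. Why few falls were called was not tested.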
